A study of Mus musculus with 36 samples.

Results

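Wild-type (WT) mouse liver was compared between ZT 16 and ZT 4, where ZT is Zeitgeber time in hours from lights on. ZT 16 falls in the dark phase, when mice feed, and ZT 4 in the light phase, when they rest. Each time was represented by 3 arrays, and these 6 arrays are 6 of the 36 in the series. They were chosen by the genotype and time in the sample titles. All animals were C57BL/6 mice on a cycle of 12 h light and 12 h dark, and their livers were frozen in liquid nitrogen. The series also holds WT livers at ZT 0, 8, 12 and 20 and livers of TB mice, which bear a lung adenocarcinoma, at all 6 times, with 3 arrays in each group. The labels used here state no age, sex or feeding regime and do not say whether each array is a separate animal, so the p-values reflect only how much these arrays vary, which may be technical.

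Liver runs a strong daily program. The transcription factors CLOCK, BMAL1 (Arntl) and NPAS2 bind E-box sequences and switch on the Per, Cry and Nr1d genes, whose proteins then hold them back. PER and CRY proteins repress the activators directly, while the nuclear receptors encoded by Nr1d1 and Nr1d2 repress Arntl, Npas2 and Cry1 through ROR elements. The PAR bZIP factors DBP, TEF and HLF carry the rhythm to metabolic genes through D-box sequences. Feeding, body temperature and glucocorticoids add rhythms of their own to liver RNA.

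Of 22180 genes measured, 222 passed an adjusted p of 0.05, or 1.00%, and 1886 (8.50%) had an unadjusted p under 0.05. Of the 222 genes, 106 (0.478% of all genes) were higher at ZT 16 and 116 (0.523%) lower. These shares are the background for the calls counted per list below. The median size of the 222 differences was 0.78 on the log2 scale, a fold of 1.72, and the smallest was 0.37. A change of at least 2-fold was seen in 43 of the higher and 23 of the lower genes. The arrays of both times did not overlap in 221 of the 222 genes, all but D130009I18Rik, against 3466 of all genes (15.6%). The test was limma's moderated test with Benjamini-Hochberg adjustment over all genes, on log2(intensity + 16), so differences of dim genes are understated. Leaving out 1 array lowered the count to 112, 106 or 152 without ZT 4 replicate 1, 2 or 3, and to 133, 129 or 121 without ZT 16 replicate 1, 2 or 3, and 66 of the 222 genes passed in all 6 of these fits. With the 6 arrays alone and same-numbered arrays paired, 210 genes passed, and 134 of them were among the 222.

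Hepatocyte markers were present in every array. Over 9 of them the summed intensity was 57248 to 59198 at ZT 4 and 55755 to 58959 at ZT 16, so the times overlapped. All 36 arrays fell into 2 sets on a component of their deviations from the group means. The component was computed on the probe sets without a gene symbol and held 28.6% of their variance. Replicate 1 of both ZT 4 and ZT 16 lay in the smaller set and replicates 2 and 3 in the larger. All 222 genes also passed with the set as a block. In the larger set alone, with 2 arrays per time, 115 genes passed, and 92 of them were among the 222. Of the 57 called named genes, 23 missed the threshold there. Among them were Alas1, Cyp7a1, Fkbp5, Hsph1, Hlf, Tef, Bhlhe40, Thrsp, Gys2 and Pfkfb3. Abcb11, Agxt, Rrp12, Cars, Tars, Psmd11, Rps23rg1, Pkhd1 and Rnd1 missed it as well. For the genes listed the adjusted p was 0.0501 to 0.245.

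The largest rise was in Usp2, a deubiquitinating enzyme under direct clock control. Usp2 read 48.5, 23.5 and 41.3 intensity units at ZT 4 and 579, 606 and 415 at ZT 16. Every ZT 16 array stood far above every ZT 4 array, with a difference of 3.37 ± 0.209 (log2, SE, n = 3 arrays per time), a fold of 10.3 and an adjusted p of 9.79e-12. Wee1, a kinase that delays entry into mitosis, read 31.1, 29.7 and 24.6 at ZT 4 against 196, 264 and 190 at ZT 16, and rose by 5.19-fold (adjusted p = 1.19e-08). The ZT 16 arrays of both genes lay far from their ZT 4 arrays. Alas1, the rate-limiting enzyme of heme synthesis, read 313, 636 and 1166 at ZT 4 and 3103, 3032 and 3131 at ZT 16. Its ZT 4 arrays were spread widely and its ZT 16 arrays closely, with a difference of 2.29 ± 0.394 and an adjusted p of 0.00127.

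**Figure D1:**
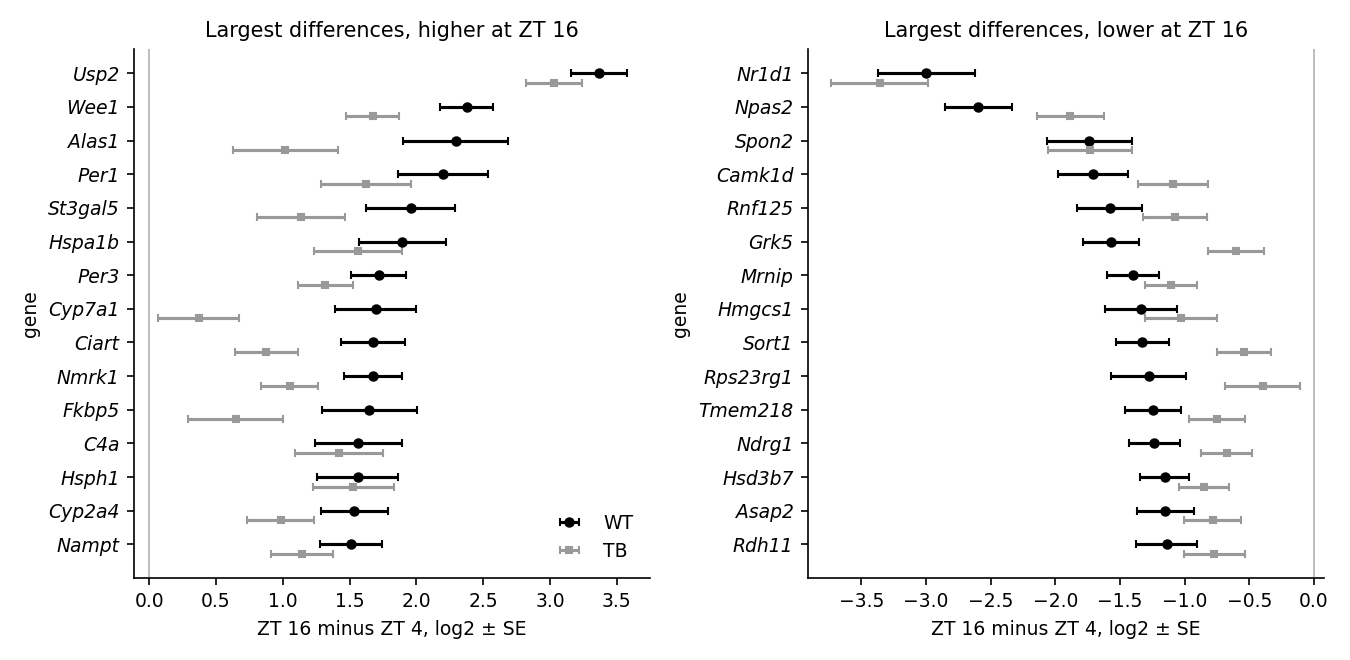
Difference between ZT 16 and ZT 4 (log2, x axis) for the 15 genes with the largest differences in each direction in WT liver. Black circles give WT and grey squares TB, with bars for the SE (n = 3 arrays per group); Usp2 leads the higher genes at 3.37 and Nr1d1 the lower genes at -3.00 in WT.

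Within the core clock, 4 of 8 measured repressor genes were called higher (against 0.478% of all genes) and none lower. Per1 read 39.4, 27.5 and 41.6 at ZT 4 and 223, 254 and 194 at ZT 16, a rise of 4.60-fold (log2 difference 2.20 ± 0.337, adjusted p = 0.000368). Per3 read 24.9, 36.7 and 26.1 against 137, 142 and 117, a rise of 3.29-fold (adjusted p = 1.48e-05). Ciart, which encodes the repressor CHRONO, read 10.7, 23.0 and 7.86 against 78.8, 96.1 and 60.3, and its fold of 3.20 (adjusted p = 0.000147) is damped by the added 16 units because its ZT 4 values are dim. Cry1 was higher by 1.17 ± 0.179 (adjusted p = 0.000368), with 89.7, 72.7 and 46.8 at ZT 4 and 183, 164 and 171 at ZT 16. In these 4 genes every ZT 16 array lay above every ZT 4 array. The other members, Cry2 at 0.15, Timeless at 0.16, Csnk1e at -0.03 and Fbxl21 at -0.10, did not pass, and their arrays overlapped.

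The 4 activator genes had negative differences, but only Npas2 passed the test. Npas2 read 257, 288 and 137 at ZT 4 and 19.3, 26.5 and 22.4 at ZT 16, a fall of 6.04-fold (log2 difference -2.59 ± 0.258, adjusted p = 4.03e-07). Its ZT 16 arrays were close to the added 16 units, and the groups were far apart. Arntl, the partner shared by CLOCK and NPAS2, read 380, 378 and 280 against 157, 208 and 244, with a difference of -0.73 ± 0.191 that missed the threshold (adjusted p = 0.0555) although its arrays did not overlap. Arntl passed without ZT 4 replicate 3 (-0.87, adjusted p = 0.0445) and with the array set as a block (adjusted p = 0.0338). Clock stood at -0.25 ± 0.142 (adjusted p = 0.701) and Arntl2 at -0.04.

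Among the nuclear receptors and DEC factors that form the side loops, Nr1d1 gave the largest fall of all genes. It read 731, 819 and 841 at ZT 4 and 104, 128 and 44.7 at ZT 16, a difference of -3.00 ± 0.373 (fold 7.97, adjusted p = 2.58e-05). The 3 ZT 4 arrays lay close together, while ZT 16 replicate 3 was the lowest by a wide margin. Its paralog Nr1d2 read 425, 430 and 436 against 600, 366 and 328, and at -0.04 ± 0.284 (adjusted p = 0.999) its groups overlapped. Bhlhe40, a DEC repressor that competes for E-boxes, was higher at ZT 16, with 600, 377 and 754 against 1274, 1269 and 868 (0.99 ± 0.215, adjusted p = 0.0133). The call of Bhlhe40 was lost without ZT 4 replicate 2 (adjusted p = 0.186), ZT 16 replicate 1 (0.0968) or ZT 16 replicate 2 (0.0856), and with the 6 arrays paired by number (adjusted p = 0.155). Rora at -0.23, Rorb at 0.26 and Bhlhe41 at 0.16 did not pass.

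Of the PAR bZIP factors, Hlf and Tef rose. Hlf read 190, 202 and 214 at ZT 4 and 338, 372 and 365 at ZT 16 (0.78 ± 0.142, adjusted p = 0.00260). Tef read 72.6, 103 and 85.5 against 152, 228 and 171 (0.95 ± 0.202, adjusted p = 0.0121). With the mean of its probe sets the log2 difference of Tef was 0.51 and still passed. Neither pair of groups overlapped, although the call of Tef was lost without ZT 4 replicate 1 (adjusted p = 0.0995) or ZT 16 replicate 2 (adjusted p = 0.105). Dbp, at 135, 171 and 198 against 300, 333 and 211, had a difference of 0.68 ± 0.244 that did not pass (adjusted p = 0.274). Nfil3, which opposes these factors at D-boxes, stood at -0.13 ± 0.169.

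**Figure D2:**
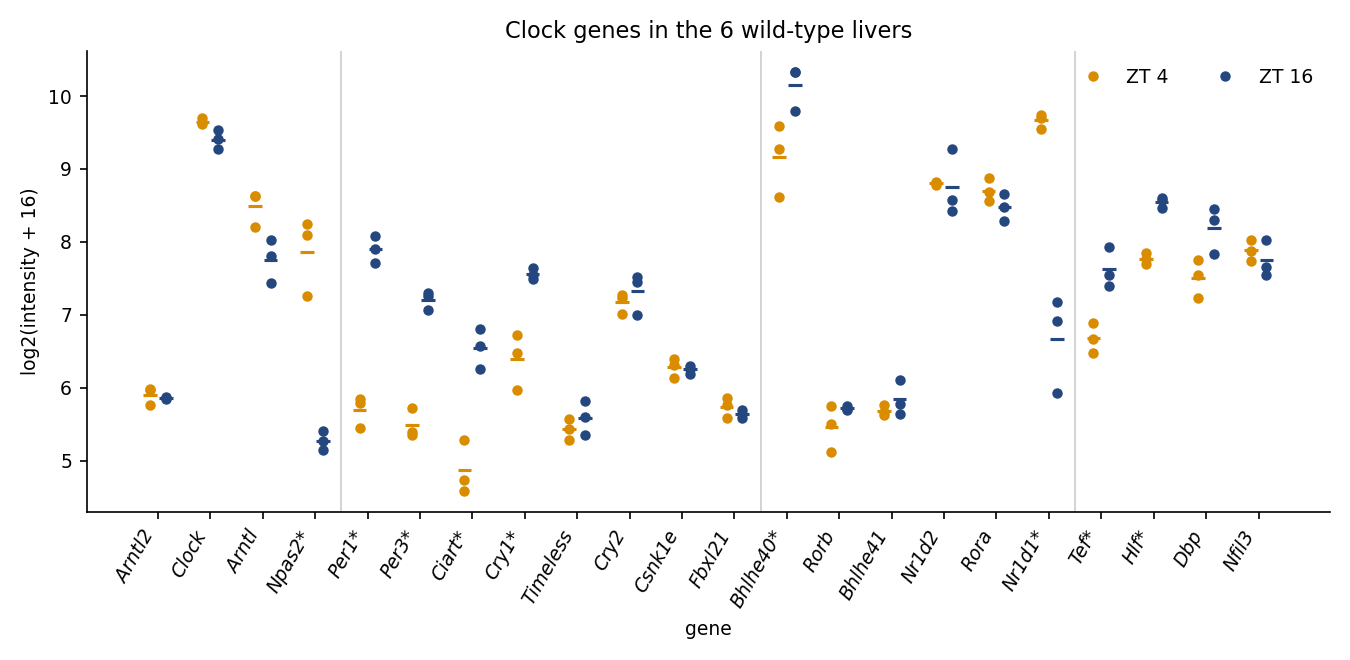
log2(intensity + 16) of the 22 clock genes (x axis) in each WT array, with 3 points per time and a short line at the mean; orange is ZT 4, blue is ZT 16, and an asterisk marks an adjusted p at or under 0.05. Per1, Per3, Ciart and Cry1 sit higher at ZT 16, and Npas2 and Nr1d1 lower, while Nr1d2 overlaps.

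The promoters of the clock genes were read from the RefSeq table of assembly GRCm38.p6, which gives 250 bases before to 50 bases after a gene's start. Of the 22 clock genes 21 had a window. The E-box was searched as CACGTG, the D-box as TTATGNAA and the ROR element as TAGGTCA or TGGGTCA, on both strands, and no match of 1 motif shared bases with a match of another in these windows. An E-box lay in 5 of the 21 genes, against 8.09% of all 27025 genes in the table and 7.15% of its 32851 windows. These were Per1, Ciart, Cry1 and Tef, which rose, and Bhlhe41, which did not pass. A D-box lay in Per1, Per3 and Timeless (3.99% of all genes), and a ROR element in Arntl and Nfil3 (7.35%). Among the 15 genes with the largest falls, 10 had a window, and Camk1d, Rps23rg1 and Hsd3b7 held a ROR element. A match describes the letters and is no evidence of a bound factor, and no match says only that these letters are not in the window. The stretches below are shown because they carry the matches of the clock genes that rose. They run 5′ to 3′ on the gene's own strand, end before the gene's start, and have the motif in capitals.
Per1, E-box, chr11:69098763-69098862, plus strand: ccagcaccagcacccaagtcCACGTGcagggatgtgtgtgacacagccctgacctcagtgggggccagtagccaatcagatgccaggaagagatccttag
Ciart, 3 E-boxes, chr3:95882265-95882364, minus strand: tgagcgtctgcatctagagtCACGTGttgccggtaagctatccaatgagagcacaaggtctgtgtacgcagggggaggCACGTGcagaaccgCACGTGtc
Cry1, E-box, chr10:85185055-85185154, minus strand: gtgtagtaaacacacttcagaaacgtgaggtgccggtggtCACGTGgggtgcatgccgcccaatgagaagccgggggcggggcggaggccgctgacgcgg
Tef, E-box, chr15:81802526-81802625, plus strand: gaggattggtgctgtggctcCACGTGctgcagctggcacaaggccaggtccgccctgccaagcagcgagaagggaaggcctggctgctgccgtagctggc
Per1, D-box, chr11:69098849-69098948, plus strand: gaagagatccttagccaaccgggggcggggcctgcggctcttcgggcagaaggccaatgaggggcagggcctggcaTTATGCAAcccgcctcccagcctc
Per3, 2 D-boxes, chr4:151044791-151044890, minus strand: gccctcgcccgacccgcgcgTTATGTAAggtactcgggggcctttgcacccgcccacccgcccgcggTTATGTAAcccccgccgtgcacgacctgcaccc

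Levels at the other times show where on each gene's daily curve ZT 4 and ZT 16 fall. Usp2 was lowest at ZT 4, at 5.72 ± 0.369 (mean ± SD of log2 values, n = 3), and highest at ZT 12, at 9.83 ± 0.218, and by ZT 16 it stood at 9.08 ± 0.289. Cry1 was lowest at ZT 8, at 5.90 ± 0.232, and highest at ZT 20, at 8.09 ± 0.216, so that its difference between ZT 16 and ZT 4 was smaller than its daily range. Nr1d1 went from 9.94 ± 0.419 at ZT 8 to 5.18 ± 0.347 at ZT 20. For Nr1d2 the times lay on either side of its highest level, with 8.80 ± 0.0175 at ZT 4, 9.64 ± 0.0929 at ZT 8 and 8.76 ± 0.448 at ZT 16. Arntl likewise passed through its lowest level between them, with 8.49 ± 0.242 at ZT 4, 5.48 ± 0.0691 at ZT 8 and 7.76 ± 0.295 at ZT 16. Dbp reached 10.37 ± 0.318 at ZT 8, above both of its levels at the compared times.

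**Figure D3:**
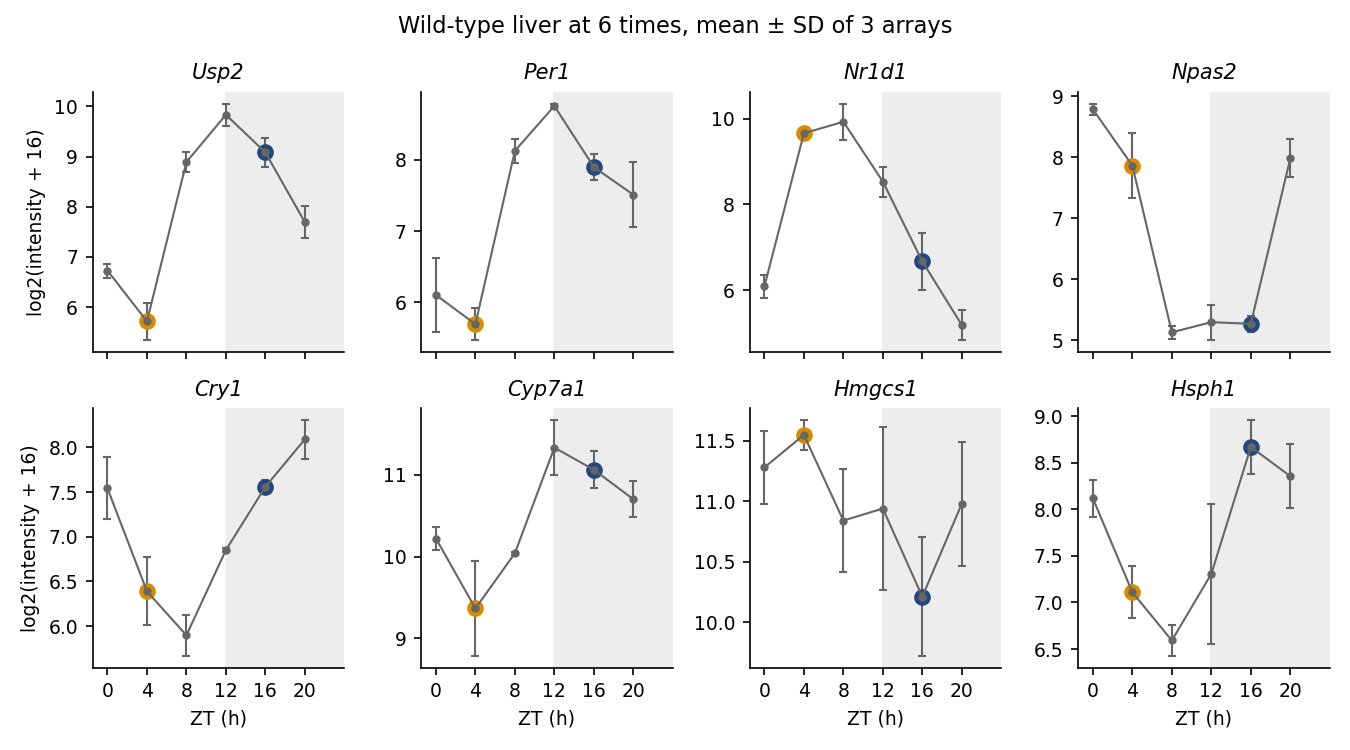
Mean ± SD of log2(intensity + 16) in WT liver at ZT 0 to ZT 20 (x axis, h; 3 arrays per time) for 8 genes; orange marks ZT 4, blue ZT 16, and grey shading the dark phase. Usp2, Per1 and Cyp7a1 are highest at ZT 12, Npas2 is highest at ZT 0, and Cry1 is highest at ZT 20.

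Among all 6 WT times, 72 of the 106 higher genes were highest at ZT 16 and 30 at ZT 12, and 76 were lowest at ZT 4. Of the 116 lower genes, 90 were highest at ZT 4 and 19 at ZT 8, and 84 were lowest at ZT 16. These counts use the arrays that chose the genes and are a description. The arrays of ZT 12 and ZT 0, like those of ZT 20 and ZT 8, had no part in the differences tested. They did share in the spread used by the test, and so in which genes passed. The ZT 12 and ZT 0 arrays gave a higher mean at ZT 12 in 91 of the 106 higher genes (85.8%, against 52.8% of all genes). They gave a lower mean at ZT 12 in 90 of the 116 lower genes (77.6%, against 47.2%). Between ZT 20 and ZT 8, 65 of the 106 higher genes were higher at ZT 20 (61.3%, against 41.8% of all genes) and 86 of the 116 lower genes were lower (74.1%, against 58.2%).

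Clock output genes, a list of 32 known targets in liver, held 8 called higher and 3 called lower, against 0.478% and 0.523% of all genes. Their median difference was 0.19 against -0.02 over all genes. Besides Usp2, Wee1 and Alas1, the rise was carried by Nampt and Coq10b. Nampt, the rate-limiting enzyme of NAD salvage, read 200, 136 and 152 at ZT 4 and 511, 442 and 517 at ZT 16 (1.51 ± 0.232, adjusted p = 0.000368). Nmrk1, which makes nicotinamide mononucleotide from nicotinamide riboside and is no member of the list, rose as well, from 90.9, 106 and 80.3 to 312, 325 and 348 (1.67 ± 0.216, adjusted p = 3.64e-05). The arrays of these NAD genes were separate at the compared times. Coq10b, a coenzyme Q carrier, rose by 1.39 ± 0.182 (adjusted p = 3.89e-05). Grk5, a kinase of G protein-coupled receptors, fell from 127, 168 and 109 to 33.7, 29.0 and 40.5 (-1.57 ± 0.217, adjusted p = 0.000113). The other calls were Gys2, Herpud1 and Tspan4, which were higher, and Tars and Insig2, which were lower. Herpud1 lost its call without ZT 4 replicate 1 or 2 or ZT 16 replicate 2 or 3 (adjusted p = 0.125 to 0.226), Tspan4 in all such fits but that without ZT 4 replicate 1 (0.0654 to 0.117), and Insig2 in all 6 (0.0861 to 0.178).

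Heat shock chaperones gave positive differences throughout their list. All 23 measured members lay on average higher at ZT 16, against 45.5% of all genes. Their median was 0.39 against -0.02 over all genes, and 5 passed the test, against 0.478% of all genes called higher. In 19 of the 23 every ZT 16 array lay above every ZT 4 array, against 6.11% of all genes. Hspa1b, an inducible HSP70, read 48.8, 38.9 and 46.6 at ZT 4 and 162, 267 and 212 at ZT 16 (fold 3.72, adjusted p = 0.00141). Hsph1, an HSP110 that recycles HSP70, read 137, 139 and 94.4 against 310, 413 and 466 (fold 2.95, adjusted p = 0.00499). Hspa8, the constitutive HSC70, rose from 2286, 2200 and 2311 to 4309, 4460 and 4615, a fold of 1.96 with little spread at either time (adjusted p = 2.58e-05). With the mean of its probe sets in place of 1 set, the difference of Hspa8 was 1.24 and did not pass (adjusted p = 0.557). Chordc1, an HSP90 co-chaperone, rose by 1.17 ± 0.179 (adjusted p = 0.000368). The fifth called member, Dnajb1 (0.83 ± 0.175, adjusted p = 0.0108), was named after its values were seen, and its call was lost without ZT 4 replicate 2 or 3 or ZT 16 replicate 1 or 3 (adjusted p = 0.0650 to 0.0890). Hspa1b and Hspa1a are near-identical copies, so their probe sets may share signal. The cold-inducible Cirbp, 76.8, 75.0 and 59.0 at ZT 4 and 36.7, 51.1 and 38.7 at ZT 16, stood at -0.57 ± 0.238 and did not pass (adjusted p = 0.437).

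Cholesterol synthesis genes gave mostly negative differences. Of 21 measured genes of the pathway and of its regulator SREBP-2, 19 had a negative difference, against 12095 of all 22180 genes. In the list 3 were called lower (against 0.523% of all genes) and none higher, and the median was -0.48. In 10 of the 21 every ZT 16 array lay below every ZT 4 array, against 9.52% of all genes. Hmgcs1, which makes the HMG-CoA used by the pathway, read 3289, 2841 and 2832 at ZT 4 and 1560, 797 and 1282 at ZT 16 (-1.34 ± 0.277, fold 2.53, adjusted p = 0.00918). Rdh11, a retinol dehydrogenase regulated with the pathway, read 732, 686 and 630 against 378, 229 and 312 (-1.14 ± 0.232, adjusted p = 0.00788). Scap, the escort of SREBP proteins, read 912, 845 and 823 against 535, 533 and 469 (-0.73 ± 0.147, adjusted p = 0.00675). The groups did not overlap in any of the 3. The calls of Hmgcs1 (adjusted p = 0.0609 and 0.0994) and Rdh11 (0.0531 and 0.0811) were lost without ZT 4 replicate 1 or ZT 16 replicate 2, and that of Scap without ZT 4 replicate 1 (0.0508) or ZT 16 replicate 3 (0.0566). With the mean of its probe sets Scap was at -0.42 and did not pass (adjusted p = 0.546). In a fit of the 18 WT arrays alone Hmgcs1 (0.0631) and Rdh11 (0.0516) did not pass. Cyp51 at -0.70, Fdft1 at -0.62, Sqle at -0.45 and Srebf2 at -0.17 did not pass, and Insig1 at 0.19 and Ebp at 0.05 were the positive members.

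Bile acid genes split. Cyp7a1, the rate-limiting enzyme of bile acid synthesis, read 411, 931 and 694 at ZT 4 and 2074, 2513 and 1830 at ZT 16, a rise of 3.24-fold (1.70 ± 0.306, adjusted p = 0.00231). Hsd3b7, which acts after Cyp7a1, fell from 1460, 1898 and 1788 to 653, 888 and 747 (-1.16 ± 0.192, adjusted p = 0.000878). Abcb11, the canalicular bile salt pump, read 2120, 2520 and 2168 against 1130, 1485 and 1099 (-0.87 ± 0.194, adjusted p = 0.0160), a call lost without ZT 4 replicate 2 (0.116), ZT 16 replicate 1 (0.0968) or ZT 16 replicate 3 (0.105). None of these 3 genes had overlapping groups. The list of 25 measured genes held these 3 calls (against 1.00% of all genes in either direction) and had a median of -0.11.

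Genes of glucose metabolism held 3 calls, all higher at ZT 16, where 0.478% of all genes were called higher. Slc37a4, the glucose 6-phosphate transporter of the endoplasmic reticulum, read 500, 427 and 426 at ZT 4 and 1198, 959 and 1153 at ZT 16 (1.26 ± 0.199, adjusted p = 0.000480), and was the only call among 19 gluconeogenesis genes. Among 23 genes of glycolysis, glycogen and glucose uptake 2 passed. Gys2, the liver glycogen synthase, rose from 987, 1116 and 1177 to 2028, 2335 and 2336 (fold 2.03, adjusted p = 0.00640), a call lost without ZT 4 replicate 1 (adjusted p = 0.0525). Pfkfb3, which raises fructose 2,6-bisphosphate, read 36.4, 32.8 and 34.4 against 55.4, 65.9 and 79.0 (0.70 ± 0.152, adjusted p = 0.0132). The call of Pfkfb3 was lost without ZT 4 replicate 2 (0.0750) or 3 (0.0511) or ZT 16 replicate 2 (0.0544) or 3 (0.119), and with the 6 arrays paired by number (adjusted p = 0.0564). The gluconeogenic enzymes G6pc at -0.59 and Pck1 at -0.51 did not pass, although their arrays did not overlap.

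Lipogenic genes held 1 call. Thrsp, a nuclear protein that promotes fat synthesis, read 1394, 2100 and 1359 at ZT 4 and 4022, 3920 and 4854 at ZT 16 (1.41 ± 0.323, adjusted p = 0.0205) and was the single call among 27 genes of fatty acid and triglyceride synthesis. Its call was lost in every fit with 1 array left out other than that without ZT 4 replicate 2 (adjusted p = 0.0600 to 0.119 without ZT 4 replicate 1 or 3 or any ZT 16 array). Elovl6 at 1.24 (adjusted p = 0.0521, or 0.0366 without ZT 16 replicate 2), Aacs at 1.18 (0.0585) and Fasn at 0.59 (0.307) did not pass. With the array set as a block Elovl6 (0.0139) and Aacs (0.0417) passed, as they did with the 6 arrays paired by number (0.0196 and 0.00922). PPAR-alpha targets and fat oxidation genes had 31 positive members of 37 (against 45.5% of all genes) and a median of 0.19 but no call. The smallest p there was for Acot4, an acyl-CoA thioesterase, at 57.8, 64.4 and 79.1 against 148, 123 and 140 (adjusted p = 0.0790, or 0.0249 with the 6 arrays paired by number).

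Amino acid catabolism held 2 falls among 24 genes, where 0.523% of all genes were called lower. Cbs, which commits homocysteine to cysteine synthesis, read 1599, 1496 and 1700 at ZT 4 and 658, 823 and 768 at ZT 16 (-1.08 ± 0.175, adjusted p = 0.000672). Agxt, which detoxifies glyoxylate, read 1080, 986 and 1255 against 650, 576 and 610 (-0.83 ± 0.203, adjusted p = 0.0365), but lost its call without any 1 of the 6 arrays (adjusted p = 0.0700 to 0.175). Both genes had separate groups. Hal, histidine ammonia-lyase, at -0.81 did not pass (adjusted p = 0.0598, 0.0345 without ZT 16 replicate 2, 0.0287 with the array set as a block, and 0.0303 with the 6 arrays paired by number).

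Ribosome biogenesis had 32 positive members of 38 (against 45.5% of all genes) and a median of 0.25. In 17 members the ZT 16 arrays all lay above ZT 4 (against 6.11% of all genes), but the only call was Rrp12, a pre-ribosome export factor. Rrp12 read 69.5, 101 and 92.4 against 160, 157 and 142 (0.72 ± 0.124, adjusted p = 0.00141), and missed the threshold with the 6 arrays paired by number (adjusted p = 0.0643). Aminoacyl-tRNA synthetases had 28 negative members of 34 (against 12095 of all 22180 genes), a median of -0.08 and 2 falls. These were Cars, at 171, 141 and 159 against 94.4, 89.0 and 82.0 (-0.73 ± 0.155, adjusted p = 0.0121), and Tars, at -0.55 ± 0.126 (adjusted p = 0.0229). Of 30 proteasome subunits 26 were negative, with a median of -0.10, and Psmd11 was called at -0.42 ± 0.0962 (adjusted p = 0.0210). Cars lost its call without ZT 4 replicate 1 (0.0885), ZT 4 replicate 3 (0.05004) or ZT 16 replicate 3 (0.0748), Tars in all such fits but that without ZT 16 replicate 3 (0.0631 to 0.124), and Psmd11 in all but that without ZT 4 replicate 3 (0.0664 to 0.105). Tars (0.0786) and Psmd11 (0.135) also missed the threshold with the 6 arrays paired by number.

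Hormone and drug response genes gave few calls. Of 20 glucocorticoid receptor targets, Per1 and Fkbp5 rose. Fkbp5, a co-chaperone of steroid receptors, read 31.9, 35.3 and 65.4 against 208, 155 and 144 (1.65 ± 0.356, adjusted p = 0.0132), with no overlap. Its call was lost without ZT 4 replicate 1 (0.0967) or 2 (0.0829) or ZT 16 replicate 1 (0.0961). Of 30 xenobiotic cytochrome P450 genes and partners, Alas1 and Cyp2a4 rose. Cyp2a4, a steroid hydroxylase, read 169, 248 and 238 against 658, 806 and 529 (1.53 ± 0.250, adjusted p = 0.000732), and its near-identical paralog Cyp2a5 stood at 1.14 (adjusted p = 0.0869, 0.0262 with the array set as a block, or 0.00922 with the 6 arrays paired by number), so their probe sets may share signal. St3gal5, which makes the ganglioside GM3, rose from 319, 229 and 217 to 1086, 970 and 1019 (fold 3.89, adjusted p = 0.00117), and its groups were far apart.

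**Figure D4:**
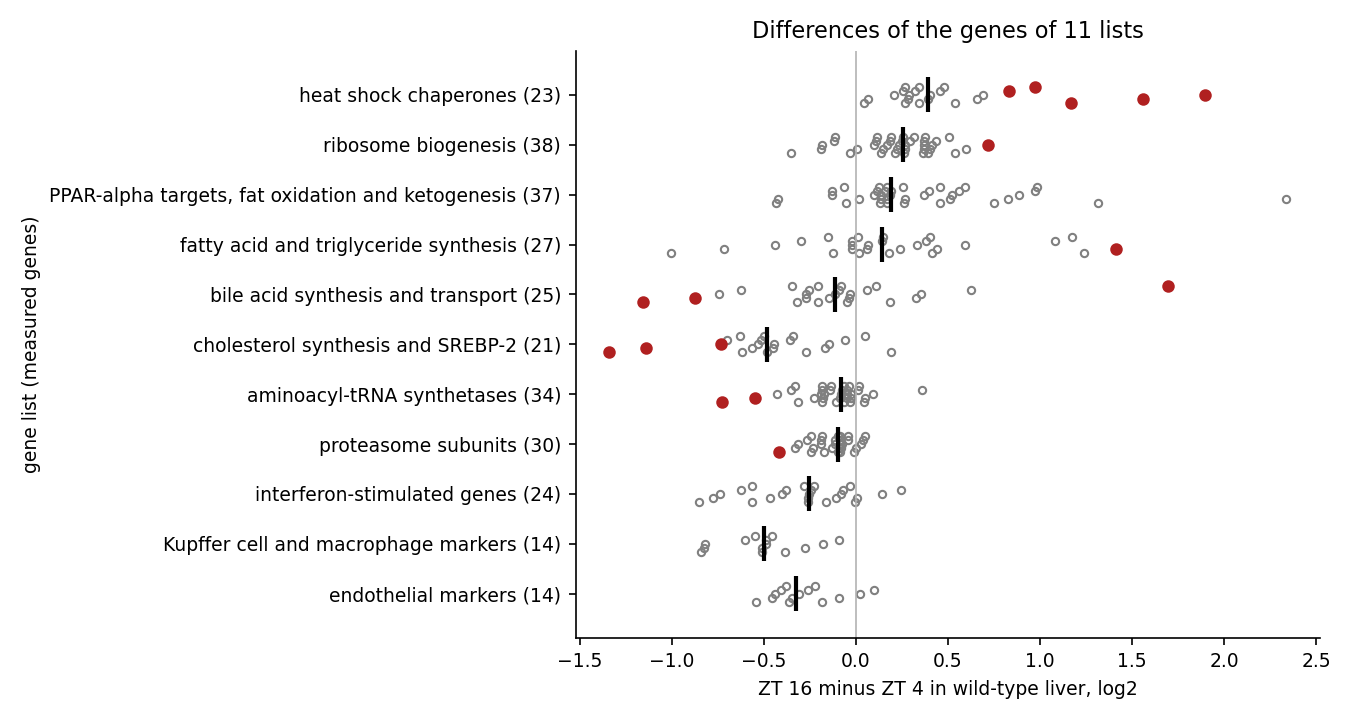
Difference between ZT 16 and ZT 4 in WT liver (log2, x axis) for each measured gene of 11 lists (y axis, number of genes in brackets); filled red points passed the test, open grey points did not, and black bars mark medians. All 23 heat shock genes lie above 0, and the cholesterol genes have a median of -0.48.

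Further large falls belonged to no list. Camk1d, a calcium-dependent kinase, read 515, 799 and 733 at ZT 4 and 246, 153 and 194 at ZT 16 (-1.71 ± 0.269, adjusted p = 0.000480). Rnf125, a ubiquitin ligase that restrains RIG-I, fell from 3060, 3149 and 2643 to 1044, 846 and 1045 (-1.58 ± 0.248, adjusted p = 0.000472). Spon2, an extracellular matrix protein, read 343, 210 and 208 against 69.0, 55.0 and 65.3 (-1.74 ± 0.328, adjusted p = 0.00420). In these 3 genes the lowest ZT 4 array stood well above the highest ZT 16 array. Sort1, a sorting receptor that acts in lipoprotein secretion, fell by 1.33 ± 0.207 on the log2 scale (adjusted p = 0.000445), and Ndrg1 by 1.23 ± 0.195 (adjusted p = 0.000480). With the mean of their probe sets these differences were -0.56 for Sort1 and -0.71 for Ndrg1, and both passed. Mrnip at -1.40, Tmem218 at -1.25, Asap2 at -1.15 and Rps23rg1 at -1.28 completed the 15 largest falls among named gene models without overlap, and C4a at 1.57 the 15 largest rises. The calls of Asap2 (without ZT 4 replicate 1, adjusted p = 0.0561), Rps23rg1 (without any array but ZT 4 replicate 3, 0.0529 to 0.152) and C4a (without ZT 4 replicate 1 or 2 or ZT 16 replicate 2 or 3, 0.0577 to 0.0700) were lost with an array left out. C4a has the close paralog C4b, so their probe sets may share signal.

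Markers of Kupffer cells, endothelium and stellate cells gave mostly negative differences, where 12095 of all 22180 genes were negative. Other marker lists stood near the share of all genes, with 8 of 13 negative for neutrophils, 7 of 11 for B and T lymphocytes and 4 of 7 for cholangiocytes. Their medians were -0.04, -0.05 and -0.05, against -0.02 over all genes. No marker of the Kupffer cell, endothelial or stellate cell lists passed the test. The cholangiocyte list of 7 measured genes had a median of -0.05 and 1 call, Pkhd1, which encodes fibrocystin and read 98.8, 103 and 90.9 at ZT 4 against 57.0, 64.4 and 49.6 at ZT 16 (-0.64 ± 0.138, adjusted p = 0.0128). The groups of Pkhd1 did not overlap, but its call was lost without ZT 4 replicate 1 (0.0616) or 2 (0.0776) or ZT 16 replicate 1 (0.0514) or 3 (0.102). All 14 Kupffer cell and macrophage markers had a negative difference, with a median of -0.50, and their summed intensity was 3151, 2930 and 1815 at ZT 4 and 1821, 1449 and 1885 at ZT 16. Replicate 3 of ZT 4 lay among the ZT 16 arrays, so the groups overlapped. Among them Lyz2, which encodes lysozyme, stood at -0.82 (adjusted p = 0.390, or 0.0336 with the 6 arrays paired by number). Of 14 endothelial markers 12 were negative, with a median of -0.33, and the sums did not overlap, at 4990 to 5487 against 3956 to 4338. Stellate cell markers were negative in 13 of 14, with a median of -0.17 and overlapping sums of 3383 to 4211 and 2800 to 3862. No marker of these 3 lists had a median under 16 units over the 6 arrays. Interferon-stimulated genes had 21 negative members of 24, a median of -0.26 and no call, with a median of -0.10 in the larger set of arrays and -0.58 in the smaller. Usp18, which removes ISG15 from proteins, stood at -0.85 (adjusted p = 0.0607) and passed with the pairing (0.0295) and with the array set as a block (0.0417). With that block Isg15 (0.0444) and Rsad2 (0.0433) passed too. In whole liver, fewer cells of a type and less RNA per cell cannot be told apart, and the part of these cells in the 116 falls was not tested. The summed B and T lymphocyte markers were 2303 in ZT 4 replicate 1, the highest of the 36 arrays, and 1038 to 1131 in the other 5 arrays compared. Without ZT 4 replicate 1, 112 genes were called, and 17 of the 57 called named genes lost their call. The summed skeletal muscle markers were 2205 in ZT 16 replicate 2 and 1184 to 1385 in the other 5 arrays, with Atp2a1 at 313 in ZT 16 replicate 2. Without that array 129 genes were called, and 15 of the 57 called named genes lost their call. The calls of Usp2, Per1, Nr1d1, Npas2, Hspa8 and Cyp7a1 were among those that held.

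The same comparison in TB liver called 41 genes (0.185%), 26 higher and 15 lower, and 8 to 22 without 1 of its 6 arrays. Of these, 34 were also called in WT, which is 15.3% of the WT list and 82.9% of the TB list, and all 34 had the same direction. Of the 222 WT genes 219 had the same sign in TB, against 60.3% of all genes, and Ablim1, Gm5523 and Rnd1 had the opposite one. Usp2 rose by 3.03 ± 0.209 in TB (adjusted p = 1.50e-10) and Nr1d1 fell by 3.36 ± 0.373 (adjusted p = 7.04e-06), both close to their WT values. Cry1 at 1.35 ± 0.179 (adjusted p = 0.000130) and Npas2 at -1.88 ± 0.258 (adjusted p = 0.000210) also passed. The difference was smaller in TB for 207 of the 222 genes, which were chosen by their WT values, so this count is no comparison. List medians in TB were 0.44 for heat shock chaperones, -0.22 for cholesterol synthesis and 0.09 for ribosome biogenesis, with the signs seen in WT. PPAR-alpha targets stood at -0.10 in TB, with 9 positive members of 37, unlike in WT. Medians in TB were -0.03 for Kupffer cell markers, 0.01 for endothelial markers and -0.05 for interferon-stimulated genes. List medians were not tested between genotypes.

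Testing the difference itself, WT change minus TB change, called none of the 22180 genes in limma, with 435 at an unadjusted p under 0.05. Of these, 40 were among the 222, which were chosen by their WT differences, so this count is no comparison. The same choice bears on the unadjusted p of Cyp7a1, Hlf, Grk5 and Rnd1, which were called in WT. Cyp7a1 changed by 1.70 ± 0.306 in WT and stood at 0.37 ± 0.306 in TB (unadjusted p of the difference 0.00467). Hlf was at 0.78 in WT and 0.17 in TB (unadjusted p = 0.00509), and Grk5 at -1.57 and -0.60 (unadjusted p = 0.00369). Rnd1 had the smallest unadjusted p, 0.000992, with -0.97 ± 0.200 in WT and 0.07 ± 0.200 in TB. Its WT arrays read 85.4, 102 and 84.0 at ZT 4 and 27.5, 48.8 and 41.0 at ZT 16, and its WT call was lost without ZT 4 replicate 2 (adjusted p = 0.0749) or ZT 16 replicate 1 (adjusted p = 0.104). None of these differences between genotypes passed the adjustment, so no gene was shown to change differently in WT and TB liver.

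**Figure D5:**
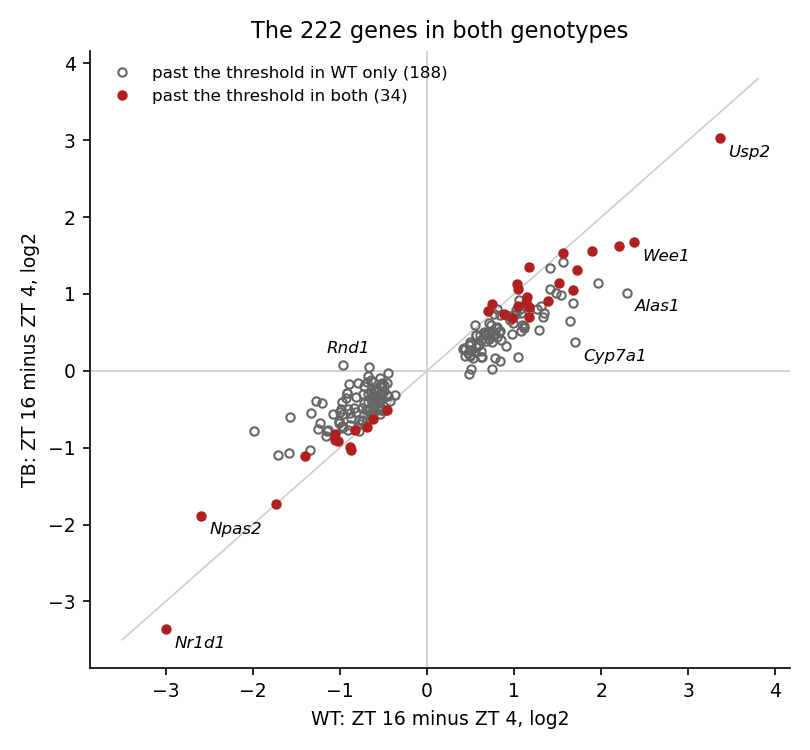
Difference between ZT 16 and ZT 4 (log2) of the 222 genes called in WT liver, in WT (x axis) and in TB (y axis), with the line of equal change; filled red points passed in both genotypes (34) and open points in WT only. Points lie mostly in the quadrants of equal sign, with Usp2 and Nr1d1 at the ends.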

How the data were processed

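RNA of mouse liver was measured on 1-colour Affymetrix arrays. The deposited values are linear intensities of 41345 probe sets, made with Affymetrix Expression Console 1.1.1 and PLIER 2.0 per the submitters' processing notes, with settings and any scaling across arrays not stated in these sources. Medians of the 6 arrays compared lay between 37.3 and 39.2 intensity units, 23.6% of their values were under 16, and no arrays of the series were identical. Precision is limited by having 3 arrays in a group.

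The platform annotation gave 1 symbol to 23521 probe sets, several to 1814 and none to 16010, and 99.2% of the first kind matched the RefSeq gene table by Entrez identifier. For the 1082 genes with several probe sets that with the highest mean was used, which left 22180 genes. All 36 arrays were fitted as 12 group means on log2(value + 16) with limma 3.58.1 in R 4.3.3 (lmFit, eBayes), with two-sided tests and Benjamini-Hochberg adjustment. "Called" means an adjusted p at or under 0.05. No filter or further normalization was applied, and the fit was tested on simulated data. Alternatives are given in the closing section.

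The comparison and the 49 gene lists (939 of 1040 symbols measured) were chosen with earlier results of these data known. The genes named are the 15 of greatest change in each direction among called genes with no overlap between groups, all clock genes, up to 4 called genes or else the gene of smallest p per list, and the 8 smallest p of the genotype test, with predicted and unnamed gene models left out of the ranked parts. Other list members given with values, Dnajb1 included, were picked after their values were seen. The alleles and transgenic genes of the TB model are not reported here. Motifs were searched in the RefSeq promoter table.

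Same-numbered WT arrays of ZT 4 and ZT 16 deviated together from their group means, with r = 0.283, 0.218 and 0.109 across all genes. Genes are not independent replicates. Differently numbered WT arrays gave r from -0.251 to 0.0674, so the numbers were taken to pair the arrays. In TB, ZT 4 replicate 2 with ZT 16 replicate 3 gave 0.152, no less than the 0.147 of the same-numbered replicate 3. Deviations from a mean of 3 arrays are tied to each other, so these r cannot establish a pairing. The pairing comes from these data alone, since the labels do not state it, and the submitters' descriptions number these arrays otherwise. Replicate 1 of both times also lay in the smaller array set, so pairing and set overlap in part. Whether a gene passed or missed the threshold with this pairing is therefore a description.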

Additional observations from a re-analysis of the deposited data

Results flagged for a closer look

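Rbm20, which encodes a splicing factor, was flagged because its arrays moved in opposite directions in WT and TB. In WT every ZT 16 array (45.5, 67.0 and 59.2) lay below every ZT 4 array (73.7, 78.7 and 74.9), with a difference of -0.34 ± 0.138 on the log2 scale, while in TB every ZT 16 array lay above every ZT 4 array, with 0.27 ± 0.138. The WT change minus the TB change was -0.61, and this difference did not pass limma's test across all genes (adjusted p = 1, unadjusted p = 0.00394). Rbm20 was not alone in its opposite signs. Fxyd4 stood at -0.38 in WT, without overlap, and at 0.31 in TB, with a smaller unadjusted p in that test (0.00345). Of the other genes named for that test's smallest p, Rnd1, Mfap3l, Cd4 and Zfp395 also had opposite signs, while Ppp1r14b and Grk5 did not. The share of all genes with arrays separate in opposite directions was not counted.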

How the results depend on the processing

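The 222 called genes (106 higher, 116 lower) became 375 (170, 205) with the array set as a block and 489 (197, 292) with array weights, and 115 (65, 50) in the larger array set alone. Leaving out 1 array gave 106 to 152, with 57 to 71 higher and 43 to 84 lower, and 260 (121, 139) without WT ZT 12 replicate 3, an array of another time that carries muscle genes. The 41 calls in TB became 95 with the array set as a block, 200 with array weights, 67 without the genes of lowest mean, 23 with only the groups compared, 12 in the larger set, 27 with a pseudocount of 1, 70 after quantile normalization, 65 without WT ZT 12 replicate 3, and 8 to 22 without 1 array. With the replicate number as a block, 208 WT genes passed, and with this pairing on the groups compared alone, an alternative chosen after seeing the data, 210 passed in WT and 98 in TB. The pairing changed the call of 9 of the 57 called named genes (Bhlhe40, Pfkfb3, Rrp12, Tars, Psmd11, Herpud1, Thra, Sqstm1 and Ppp1r14b) and of 6 that were not called (Acot4, Gclc, Usp18, Cyp2a5, Hal and Lyz2), and changed no other call among them. Called named genes that missed the threshold were Scap and Hspa8 with the mean of probe sets, Tars and Psmd11 after median centring, Herpud1 and Agxt with a pseudocount of 1, Agxt after quantile normalization, Hmgcs1, Rdh11, Bhlhe40, Herpud1 and Tars with the 18 WT arrays alone, and Bhlhe40, Herpud1, Tars, Psmd11 and Sqstm1 with only the groups compared. The test of WT against TB change called 0 genes under every alternative run. Of the named genes, the sign turned for Csnk1e (0.0033 in the larger set, 0.0050 after quantile normalization, -0.11 to 0.028 without 1 array), Nr1d2 (-0.30 to 0.12 without 1 array), Nfil3 (0.038 in the larger set) and Retn (0.029 in the larger set, -0.30 to 0.011 without 1 array), none of which was called. The fits in the larger set and without 1 array have fewer arrays, and the cause of the other changes was not tested.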

Other observations

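A few called genes of other functions were not described above. Ces1d, a carboxylesterase that mobilises triglyceride for lipoproteins, read 486, 622 and 496 at ZT 4 and 1096, 1191 and 1124 at ZT 16, a rise of 2.10-fold (adjusted p = 0.00438). Bnip3, a mitophagy receptor, rose by 0.85 ± 0.190 on the log2 scale, and Sqstm1, the autophagy receptor p62, fell by 0.45 ± 0.0896 (adjusted p = 0.0174 and 0.00675). Bnip3 kept its call only without ZT 4 replicate 1 (adjusted p = 0.0539 to 0.0972 without the others), and Sqstm1 lost it without ZT 4 replicate 3 (0.0567) or ZT 16 replicate 2 (0.0652) and with the 6 arrays paired by number (0.117). Thra, a thyroid hormone receptor, read 102, 93.0 and 80.7 against 51.7, 52.0 and 58.8 (-0.62 ± 0.131, adjusted p = 0.0117), a call lost without ZT 4 replicate 1 or 2 or ZT 16 replicate 1 or 2 (0.0600 to 0.0960) and with that pairing (0.0764). Acot3, an acyl-CoA thioesterase picked after its values were seen, read 9.32, 13.8 and 11.7 at ZT 4 and 182, 96.0 and 105 at ZT 16. Its difference of 2.34 ± 0.692 did not pass (adjusted p = 0.116), but passed with the 6 arrays paired by number (adjusted p = 0.00524).

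Several large gene groups gave no call. Among 38 oxidative phosphorylation genes the median difference was 0.04 and 0 had an unadjusted p under 0.05, and among 25 acute phase genes the median was -0.04 with 0 such genes. Cytosolic ribosomal protein genes had a median of 0.03 over 33 members, with 1 such gene. Insulin and IGF pathway genes held 8 of 27 with an unadjusted p under 0.05 and no call, with 11 positive and 16 negative members. Igfbp4 had the smallest p there and was higher at ZT 16 without overlap (0.37 ± 0.0965, adjusted p = 0.0521). Its adjusted p was 0.0322 with the array set as a block and 0.231 with the 6 arrays paired by number. Irs2 went the other way, at 176, 123 and 118 at ZT 4 against 43.9, 43.8 and 69.9 at ZT 16 (-1.18 ± 0.308, adjusted p = 0.0553). For Irs2 those 2 fits gave 0.0277 and 0.0422. Immediate early genes had a median of -0.04 over 23 members, and Egr1 at 246, 135 and 63.7 against 24.1, 67.4 and 23.4 overlapped between times (adjusted p = 0.162).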
